A study of Bubalus bubalis with 12 samples.

Results

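Corpora lutea (CL) collected 18 h after a luteolytic dose of a PGF2α analogue were compared with CL collected 3 h after it. The comparison took every array labelled 18 h (n = 3, replicates 1, 2 and 3) and every array labelled 3 h (n = 2, replicates 1 and 3), which are 5 of the 12 arrays of the series, over the 24016 probe sets of the GeneChip Bovine Genome Array that are not control probe sets. The animals were buffalo cows (Bubalus bubalis) on day 11 of the estrous cycle, and all 5 had received 500 µg cloprostenol, a synthetic PGF2α analogue, by intramuscular injection. The other 7 arrays were control CL of the same cycle day with no treatment (0 h, n = 4) and CL taken 6 h after cloprostenol (n = 3). The labels count each array as a separate animal. RNA came from whole frozen CL, in which fewer cells of a type and less RNA per cell cannot be told apart. The deposited values are on the log2 scale, where a difference of 1 is a 2-fold change, and come from RMA (robust multichip averaging), a procedure that removes background, matches the distributions of the arrays and reduces the probes of each set to a single value. The probes were designed on cattle sequence and levels were set only against the same probe set on other arrays.

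In ruminants PGF2α ends the life of the CL. It acts through PTGFR, a G protein-coupled receptor carried by the steroidogenic luteal cells, and progesterone output falls before the tissue itself regresses through cell death, remodelling of the extracellular matrix and entry of immune cells. Progesterone is made from cholesterol: STAR moves cholesterol to the inner mitochondrial membrane, CYP11A1 with its electron donor FDX1 cuts the side chain, and HSD3B1 turns pregnenolone into progesterone.

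At 18 h the PGF2α receptor, HSD3B1 and enzymes that build cholesterol were lower than at 3 h, while galectin 3, laminin chains, ligands of the TGFβ family and the cell death gene BNIP3 were higher. PTGFR fell 2.29-fold, HSD3B1 2.18-fold and the sterol enzyme MVD 2.75-fold, whereas LGALS3 rose 4.74-fold and PMEPA1, an inhibitor of TGFβ signalling, 9.14-fold. These 5 calls and that of the laminin chain LAMB1 were kept whichever single array was left out. Those of the TGFβ family ligands, the laminin chain LAMC1 and BNIP3 were not. With only the 5 arrays at 3 h and 18 h fitted, HSD3B1, MVD and LAMB1 were not called. None of the 56 genes of oxidative phosphorylation passed the test, and neither did the LH receptor LHCGR, which was 6.38-fold lower on average with 1 array at 18 h far above the other 2.

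Over probe sets, 681 of 24016 (2.84%) differed between 18 h and 3 h at an adjusted p under 0.05 by limma with the Benjamini-Hochberg adjustment, 414 higher and 267 lower at 18 h. Of these, 364 changed at least 2-fold (232 higher, 132 lower). With 1 probe set per gene, 404 of 9155 genes (4.41%) were called: 244 (2.67%) were up regulated and 160 (1.75%) were down regulated. Whether the share of called members in any gene list below differed from these shares was not tested. The median difference of the called genes was 1.03 for those that rose and -0.97 for those that fell, against -0.02 over all 9155 genes. The values of all 404 called genes did not overlap between the 2 arrays at 3 h and the 3 arrays at 18 h. Over all genes, 2876 of 9155 (31.4%) did not overlap, 1395 higher and 1481 lower at 18 h, so an absence of overlap is common with so few arrays.

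The arrays at 3 h differed from each other more than those at 18 h. Between the 2 arrays at 3 h, 1306 probe sets lay more than 2-fold apart, compared with 239 to 357 between pairs of arrays at 18 h. Replicate 1 at 3 h correlated over probe sets more closely with the control arrays (mean r 0.984) than with those at 6 h (0.975) or 18 h (0.972), whereas replicate 3 at 3 h was closest to the arrays at 6 h (0.983, against 0.977 with 0 h and 0.976 with 18 h). On the first principal component, which held 42.8% of the variance, replicate 1 at 3 h stood at -29.6 among the controls (-48.8 to -13.8) and replicate 3 at 1.89, between the controls and the arrays at 6 h and 18 h (16.3 to 37.9). Array medians lay between 7.09 and 7.17. A difference in timing, in the animals and in the tissue or RNA cannot be told apart here.

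This spread bears on every result. Of all genes, 3657 (39.9%) differed from the 18 h mean in opposite directions on the 2 arrays at 3 h. The arrays at 3 h lay within 0.5 log2 units of each other for 282 of the 404 called genes (69.8%) and for 73.3% of all genes, and more than 2-fold apart for 32 called genes (7.92%) and 6.61% of all genes. Of the 404 calls, 135 were made both without replicate 1 and without replicate 3 at 3 h, and 109 were made in each of the 12 fits that left out 1 array. Below, a call made in all 12 of these fits is said to hold without any single array, and for other calls the arrays whose removal ended it are named or, where most removals ended it, the number of these fits that made it is given. Fitting the 5 arrays alone called 71 genes. Of the 22 named genes whose calls held without any single array, 15 were called in that fit and 7 were not (HSD3B1, MVD, SQLE, LIPE, LAMB1, APLNR and TC2N). With array weights, 1 of the alternatives listed below, SERPINA14, AHSG, MAP3K7CL, HSD3B1, SQLE, LIPE, HSPA2 and CCND1 lost their calls. With the replicate number as a block in the 12-array fit AHSG, MVD and SQLE did. Without replicate 3 at 3 h 853 genes were called, without replicate 1 at 18 h 127 and without replicate 3 at 18 h 247.

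**Figure D1:**
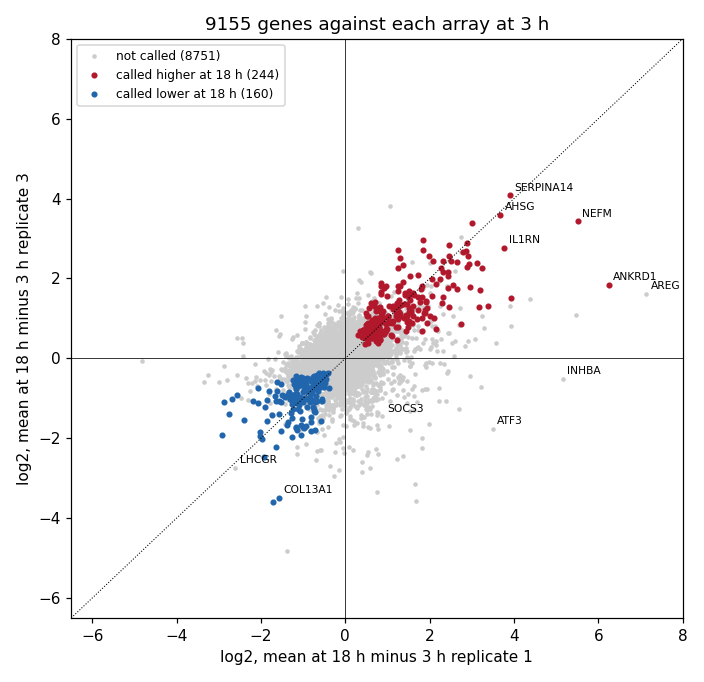
Each point is 1 of 9155 genes, plotted by the log2 difference between the mean of the 3 arrays at 18 h and replicate 1 at 3 h (x axis) or replicate 3 at 3 h (y axis), with called genes in red (244 higher) and blue (160 lower). On the dotted line both differences are equal; called genes lie on both sides of it, and INHBA and ATF3 lie in the quadrant where 18 h was above replicate 1 but below replicate 3.

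The receptors that luteal cells use to sense hormones were considered next. PTGFR stood at 13.39 and 13.53 at 3 h, and at 12.14, 12.33 and 12.32 at 18 h. All 3 values at 18 h lay more than 1 unit below both values at 3 h, and the 4 control arrays (13.42 to 13.77) were at the level of 3 h. The receptor fell by 1.19 ± 0.13 (log2 ± SE; adjusted p = 0.00118), all 3 of its probe sets were called lower, and the call held without any single array. PGRMC1, a membrane protein linked to progesterone binding, rose from 11.45 and 11.72 to 12.50, 12.46 and 12.04, a rise of 0.75 ± 0.17 (adjusted p = 0.0362). Its groups did not overlap, but the call was lost on leaving out control replicate 1 or 4, replicate 1 at 3 h, replicate 2 at 6 h or replicate 1 or 2 at 18 h (adjusted p up to 0.129). LHCGR, through which LH maintains the CL, read 11.28 and 11.40 at 3 h and 8.19, 10.15 and 7.67 at 18 h. All 3 were below 3 h, with replicate 2 at 18 h about 2 units above the other 2, and the difference of -2.67 ± 0.73 did not pass (adjusted p = 0.0665). Of the 20 hormone receptor genes measured, PGRMC1 was the one called higher and PTGFR the one called lower, against 2.67% and 1.75% of all genes. The median of the list was -0.08.

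In the steroidogenic pathway 4 of 20 genes fell and none rose, against 1.75% and 2.67% of all genes, with a list median of -0.32. HSD3B1 read 14.65 and 14.64 at 3 h and 13.42, 13.29 and 13.85 at 18 h. All arrays at 18 h were lower, and the fall of 1.13 ± 0.19 (adjusted p = 0.0108) held without any single array. FDX1 went from 14.54 and 14.49 to 13.63, 14.03 and 13.80, a fall of 0.70 ± 0.14 (adjusted p = 0.0241). NR5A2, a nuclear receptor that drives steroidogenic genes, read 10.18 and 9.04 at 3 h and 8.33, 7.89 and 7.70 at 18 h, so that the arrays at 3 h were themselves more than 1 unit apart and still above every array at 18 h (-1.63 ± 0.34, adjusted p = 0.0243). STAR fell by only 0.51 ± 0.13 from levels near the top of the scale, 14.86 and 14.82 at 3 h and 14.42, 14.49 and 14.08 at 18 h, and passed narrowly (adjusted p = 0.0484). The FDX1 call was lost without replicate 1 at 3 h or replicate 1 or 3 at 18 h (adjusted p up to 0.0846), the NR5A2 call without replicate 1 at 3 h or replicate 2 or 3 at 18 h (up to 0.100; -1.07 without replicate 1 at 3 h), and the STAR call was kept only without control replicate 3 or replicate 2 at 18 h (up to 0.113 without the others).

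CYP11A1, which catalyses the first step of steroid synthesis, overlapped between the groups, at 14.13 and 14.14 against 13.82, 14.28 and 13.72 (-0.19 ± 0.15, adjusted p = 0.542). NR5A1, the related nuclear receptor, read 9.81 and 9.38 at 3 h and 8.81, 9.11 and 8.67 at 18 h without passing the test (-0.73 ± 0.31, adjusted p = 0.225). The oxytocin gene OXT, abundant in ruminant luteal cells, also overlapped (-0.09 ± 0.19, adjusted p = 0.853). Within the pathway, then, calls were made at HSD3B1, FDX1, NR5A2 and STAR and not at CYP11A1; whether these genes differed from CYP11A1 in their response was not tested.

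**Figure D2:**
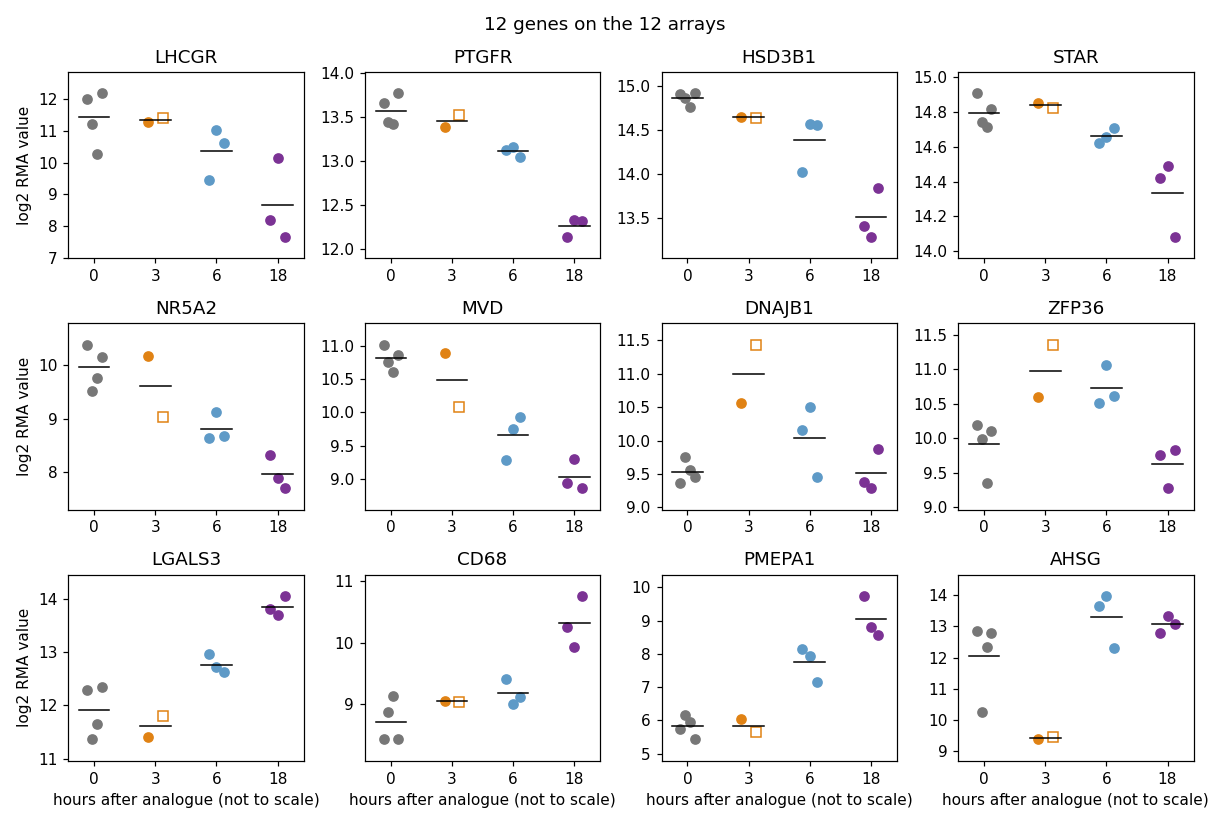
Log2 RMA values of 12 genes on each of the 12 arrays, by hours after cloprostenol (0, 3, 6 and 18; axis not to scale), with the mean of each group as a line; at 3 h the filled circle is replicate 1 and the open square replicate 3. PTGFR, HSD3B1 and MVD were lowest at 18 h, DNAJB1 and ZFP36 were high at 3 h and near the control level at 18 h, and LGALS3 and PMEPA1 were highest at 18 h.

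Luteal cells also make cholesterol, by the mevalonate pathway. Of its 21 genes measured, 6 fell (HMGCS1, MVK, MVD, SQLE, NSDHL and EBP) and none rose, against 1.75% and 2.67% of all genes. The difference was negative in 18, against 53.1% of all genes, with a median of -0.60. MVD, which makes isopentenyl diphosphate, read 10.90 and 10.08 at 3 h and 8.94, 9.29 and 8.86 at 18 h. The 2 groups were apart although replicate 3 at 3 h was closer to 18 h than replicate 1 was, and the fall was 1.46 ± 0.25 (adjusted p = 0.0118). SQLE, the squalene epoxidase, was steady at 3 h (13.27 and 13.17) and at 18 h (12.54, 12.44 and 12.56), a fall of 0.71 ± 0.13 (adjusted p = 0.0146). At 6 h SQLE had not moved toward its level at 18 h (13.15, 13.12 and 13.46). The calls of MVD and SQLE held without any single array but, like those of HSD3B1 and LIPE, were lost when only the 5 arrays were fitted. NSDHL fell by 0.77 ± 0.16 (adjusted p = 0.0212) and EBP, a sterol isomerase, by 0.94 ± 0.19 (adjusted p = 0.0217), and both calls were lost without replicate 1 at 3 h or replicate 1 at 18 h, NSDHL also without replicate 2 and EBP without replicate 3 at 18 h (adjusted p up to 0.0918). The smaller falls of HMGCS1 (-0.71 ± 0.18, adjusted p = 0.0461) and MVK (-0.79 ± 0.20, adjusted p = 0.0469) were called in 2 and 4 of the 12 fits that left out 1 array, and MVK was -0.48 without replicate 1 at 3 h. FDFT1, which joins farnesyl units into squalene, read 11.79 and 10.54 at 3 h and 9.24, 10.21 and 9.01 at 18 h and missed the threshold (-1.68 ± 0.43, adjusted p = 0.0512). With replicate 1 at 3 h left out, MVD was -1.05, SQLE -0.66 and NSDHL -0.52. With replicate 3 at 3 h left out they were -1.87, -0.76 and -1.03.

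Genes that handle imported and stored cholesterol showed 1 rise and 2 falls among 17, against 2.67% and 1.75% of all genes, with a median of 0.04. MYLIP, the ubiquitin ligase that marks the LDL receptor for breakdown, rose from 8.20 and 7.66 to 9.63, 9.65 and 9.93 (1.81 ± 0.24, adjusted p = 0.00301), and its 3 values at 18 h lay well above both at 3 h. The hormone-sensitive lipase LIPE, which frees cholesterol from its esters, fell from 9.04 and 8.93 to 7.86, 7.94 and 8.12 (-1.01 ± 0.17, adjusted p = 0.0110). Both calls held without any single array, but LIPE was not called when a gene was taken as the mean of its 4 probe sets, of which 1 was called. The oxysterol receptor NR1H3 fell by 1.08 ± 0.22 (adjusted p = 0.0228), a call lost without replicate 1 at 3 h or any 1 array at 18 h (adjusted p up to 0.0734; -0.64 without replicate 1 at 3 h).

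**Figure D3:**
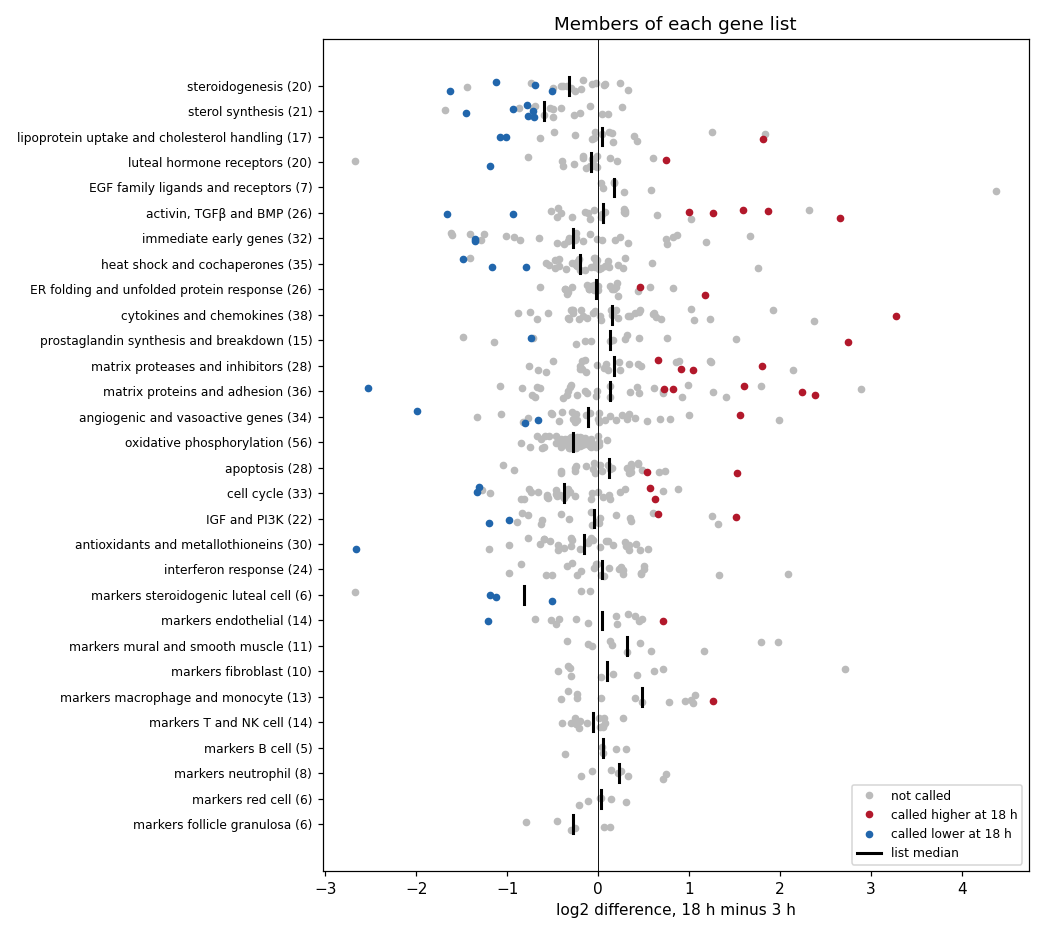
Log2 difference (18 h minus 3 h) of every measured member of 30 gene lists, with the number of members in parentheses and the list median as a black bar; red and blue points are called higher and lower at 18 h. Sterol synthesis (median -0.60) and the luteal cell markers (-0.82) lie to the left of 0, while members of the activin, TGFβ and BMP list were called in both directions.

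In the TGFβ superfamily, whose ligands act through SMAD proteins in follicle and CL, 5 of 26 genes rose and 2 fell. The shares over all genes were 2.67% and 1.75%, and the list median was 0.06. The ligand BMP2 rose from 5.71 and 6.28 to 9.76, 7.97 and 8.23 (2.66 ± 0.50, adjusted p = 0.0165). BMP4 rose from 7.30 and 7.70 to 9.08, 8.59 and 8.59 (1.26 ± 0.25, adjusted p = 0.0200). TGFB2 rose from 5.76 and 6.93 to 8.66, 7.85 and 8.13 (1.87 ± 0.42, adjusted p = 0.0332). For these ligands every array at 18 h was above both arrays at 3 h, and at 6 h each already stood between the groups or at the level of 18 h. The receptor TGFBR1 rose by 0.997 ± 0.22 (adjusted p = 0.0315) and TGFBI, a matrix protein named for its induction by TGFβ, by 1.60 ± 0.40 (adjusted p = 0.0495). ID1, a helix-loop-helix protein that BMP signalling induces in many cells, went the other way, from 12.06 and 12.37 to 10.53, 10.68 and 10.45 (-1.67 ± 0.18, adjusted p = 0.00118), and ID2 fell by 0.94 ± 0.23 (adjusted p = 0.0477).

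The ID1 call held without any single array, and 1 of the 2 probe sets of ID1 was called. The BMP2 call was lost without replicate 1 at 3 h (adjusted p = 0.0642) the BMP4 call without that array or replicate 1 at 18 h (up to 0.0809) and the TGFB2 call without that array or replicate 1 or 3 at 18 h (up to 0.145). The TGFBR1 call (0.60 without replicate 3 at 3 h) was lost without control replicate 1, replicate 3 at 3 h or replicate 1 or 2 at 18 h, and TGFBI and ID2 were each called in 2 of the 12 fits. INHBA, the activin A subunit, could not be placed: it read 7.29 and 12.96 on the arrays at 3 h and 13.04, 11.56 and 12.74 at 18 h. Replicate 1 at 3 h was at the control level (7.68 to 8.44) and replicate 3 at that of 6 h (11.78 to 13.48), and the difference of 2.32 ± 1.21 did not pass (adjusted p = 0.323).

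Matrix and adhesion genes gave 5 rises and 1 fall among 36, against 2.67% and 1.75% of all genes, with a median of 0.13. LGALS3, a galectin made by macrophages and many other cells, rose from 11.41 and 11.80 to 13.82, 13.69 and 14.05 (2.24 ± 0.27, adjusted p = 0.00193). The laminin β1 chain LAMB1 rose from 11.18 and 11.32 to 11.91, 12.05 and 11.97 (0.73 ± 0.10, adjusted p = 0.00376). In both genes the spread within each group was small against the gap, and both calls held without any single array. The laminin γ1 chain LAMC1 rose by 0.82 ± 0.17 (adjusted p = 0.0263), osteopontin (SPP1) by 2.38 ± 0.56 (adjusted p = 0.0389) and integrin β3 (ITGB3) by 1.60 ± 0.38 (adjusted p = 0.0392). COL13A1, a transmembrane collagen, fell from 8.06 and 9.97 to 6.47, 6.26 and 6.71 (-2.53 ± 0.48, adjusted p = 0.0168), a call lost without replicate 1 at 18 h (adjusted p = 0.0578), and its difference was -3.49 without replicate 1 and -1.58 without replicate 3 at 3 h. LAMC1 lost its call without replicate 1 at 3 h or replicate 1 or 3 at 18 h (adjusted p up to 0.0951), and SPP1 and ITGB3 were called in 5 and 4 of the 12 fits. CD44, the hyaluronan receptor, read 8.39 and 8.10 at 3 h and 11.59, 10.18 and 11.62 at 18 h and was not called (2.89 ± 0.77, adjusted p = 0.0599).

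Among 28 matrix proteases and inhibitors 4 rose and none fell, against 2.67% and 1.75% of all genes, with a median of 0.17. The gelatinase MMP9 went from 5.84 and 5.73 to 6.36, 6.35 and 6.62 (0.66 ± 0.15, adjusted p = 0.0325). All these MMP9 values lay below the array medians (7.09 to 7.17), and how near they are to background was not tested. The membrane-bound MMP14 rose by 0.91 ± 0.23 (adjusted p = 0.0453), the lysosomal protease CTSZ by 1.05 ± 0.25 (adjusted p = 0.0379) and the urokinase receptor PLAUR by 1.80 ± 0.45 (adjusted p = 0.0459). These were modest calls: MMP9 lost its call on leaving out either array at 3 h or any 1 array at 18 h (adjusted p up to 0.0870), and with control replicates 1 and 4 averaged it was the only one of the list called. MMP14 and PLAUR were called in 2 and CTSZ in 3 of the 12 fits that left out 1 array, and without replicate 1 at 18 h no protease was called. The difference of PLAUR was 0.87 without replicate 1 at 3 h and that of MMP14 0.57 without replicate 3.

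Of 28 apoptosis genes 2 rose and none fell, against 2.67% and 1.75% of all genes, with a median of 0.12. BNIP3, a mitochondrial protein of the BCL2 family that promotes mitophagy and cell death, rose from 10.49 and 10.27 to 12.28, 12.26 and 11.18, so that every array at 18 h was higher and replicate 3 lay about 1 unit below the other 2 (1.53 ± 0.28, adjusted p = 0.0142). Only 1 of the 3 probe sets of BNIP3 was called. Its relative BNIP3L rose by 0.53 ± 0.11 (adjusted p = 0.0263). At 6 h both were still near 3 h, having covered 18.4% and -10.9% of the change from 3 h to 18 h. BNIP3 lost its call without replicate 1 at 18 h (adjusted p = 0.0527), and BNIP3L without replicate 3 at 3 h or replicate 1 or 2 at 18 h (up to 0.0734).

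Immediate early genes, which cells switch on within minutes to hours of a stimulus without new protein synthesis, had 2 falls among 32 and a median of -0.27. The share of falls over all genes was 1.75%. ZFP36, which destabilises cytokine mRNAs, fell from 10.60 and 11.36 to 9.76, 9.28 and 9.83 (-1.36 ± 0.30, adjusted p = 0.0287). The transcription factor CEBPD fell from 12.65 and 13.36 to 11.48, 11.64 and 11.85 (-1.35 ± 0.32, adjusted p = 0.0371). Both arrays at 3 h lay above all arrays at 18 h in each, with replicate 3 the higher, and both calls were lost without that array (adjusted p = 0.0985 and 0.128). Both were also lost without replicate 1 or 2 at 18 h, and CEBPD without replicate 1 at 6 h or replicate 3 at 18 h. In several other members the arrays at 3 h were far apart. ATF3 read 7.52 and 12.78 at 3 h and 11.10, 10.43 and 11.51 at 18 h (0.87 ± 1.30, adjusted p = 0.774), and NR4A1 read 11.02 and 12.88 against 10.29, 10.09 and 10.62 (-1.61 ± 0.54, adjusted p = 0.123). FOS was above 18 h on both arrays at 3 h, at 12.28 and 12.60 against 11.45, 11.71 and 11.57, as was NR4A1. FOS (-0.86 ± 0.47), JUN (-0.37 ± 0.37) and EGR1 (-0.24 ± 0.46) did not pass either (adjusted p = 0.347, 0.636 and 0.8291). Averaged over the list, replicate 1 at 3 h (9.88) was within the controls (9.81 to 9.91), replicate 3 (11.29) was the highest of all 12 arrays, and the arrays at 18 h (10.12 to 10.39) lay between them. The list median was therefore -0.96 when replicate 1 at 3 h was left out, and 0.30 when replicate 3 was.

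Heat shock genes and their partners had 3 falls and no rise among 35 (median -0.20), against 1.75% and 2.67% of all genes. HSPA2 fell from 10.17 and 9.996 to 8.80, 9.04 and 8.91 (-1.17 ± 0.19, adjusted p = 0.00948), and the constitutive chaperone HSPA8 from 13.97 and 13.95 to 12.97, 13.20 and 13.32 (-0.80 ± 0.16, adjusted p = 0.0192). DNAJB1, the HSP40 partner of HSP70, fell from 10.56 and 11.43 to 9.38, 9.29 and 9.87 (-1.48 ± 0.31, adjusted p = 0.0270). In all 3 genes the groups were apart, and the HSPA2 call held without any single array. The HSPA8 call was lost without replicate 1 at 3 h or at 18 h (adjusted p up to 0.0734), and the DNAJB1 call without replicate 3 at 3 h or replicate 1 or 2 at 18 h (up to 0.0908). HSPH1 went from 12.43 and 11.99 to 11.89, 11.45 and 11.88 and did not pass (-0.47 ± 0.20, adjusted p = 0.217). In the endoplasmic reticulum list 2 of 26 rose, CREB3 by 0.46 ± 0.11 (adjusted p = 0.0371) and the oxidase ERO1A by 1.18 ± 0.29 (adjusted p = 0.0439), with a list median of -0.03; each was called in 3 of the 12 fits that left out 1 array.

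Mitochondrial and cell cycle genes showed how far the choice of array at 3 h could carry a whole list. Of 56 oxidative phosphorylation genes 53 (94.6%) had a negative difference, against 53.1% of all genes, and the median was -0.28, but none was called. The mean level of the list was 12.28 on replicate 1 and 11.72 on replicate 3 at 3 h, and 11.58 to 11.89 at 18 h. Replicate 1 was thus above every control (11.94 to 12.16), and replicate 3 was within the range of 18 h. The median was -0.48 without replicate 3 and -0.0017 without replicate 1. Of 33 cell cycle genes CCND1 and CCNE2 fell and CCNE1 and MCM7 rose, where 1.75% of all genes were called lower and 2.67% higher. The list median of -0.38 became -0.81 without replicate 3 and 0.06 without replicate 1 at 3 h. The G1 cyclin CCND1 fell from 7.28 and 7.35 to 5.98, 6.21 and 5.78 (-1.33 ± 0.19, adjusted p = 0.00562), a call that held without any single array. CCNE2 fell by 1.31 ± 0.26 (adjusted p = 0.0200), MCM7, a subunit of the replicative helicase, rose by 0.63 ± 0.12 (adjusted p = 0.0186) and CCNE1 by 0.57 ± 0.12 (adjusted p = 0.0272). The CCNE2 call was lost without replicate 1 at 3 h or replicate 1 or 2 at 18 h, and those of MCM7 and CCNE1 without replicate 3 at 3 h or replicate 1 or 3 at 18 h (adjusted p up to 0.0922).

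**Figure D4:**
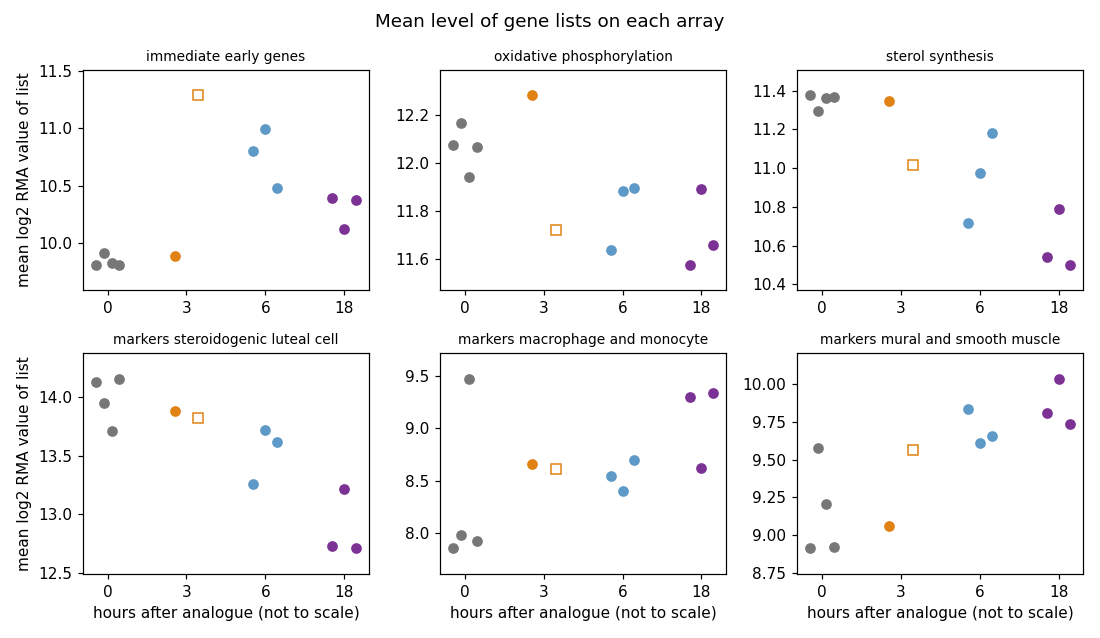
Mean log2 RMA value of 6 gene lists on each of the 12 arrays, by hours after cloprostenol (0, 3, 6 and 18; axis not to scale); at 3 h the filled circle is replicate 1 and the open square replicate 3. For immediate early genes the arrays at 3 h stood at 9.88 and 11.29, at the 2 ends of the whole range of treated arrays, whereas the luteal cell markers stood at 13.88 and 13.82.

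EGF-like ligands, cytokines and prostaglandin genes gave few calls, where 2.67% of all genes were called higher and 1.75% lower. None of the 7 EGF family genes passed, although all 7 differences were positive (median 0.17). AREG, an EGF receptor ligand, read 4.23 and 9.76 at 3 h and 11.57, 11.76 and 10.79 at 18 h. All arrays at 18 h were higher, but the arrays at 3 h were themselves more than 5 units apart, and the difference of 4.38 ± 1.23 did not pass (adjusted p = 0.0754). Of 38 cytokine and chemokine genes IL1RN, the interleukin-1 receptor antagonist, rose, from 6.90 and 7.89 to 11.15, 9.32 and 11.53 (3.27 ± 0.78, adjusted p = 0.0409), and the list median was 0.15. The chemokine CCL2 read 11.26 and 13.28 at 3 h, around the 12.67, 12.12 and 13.38 of 18 h (0.45 ± 0.83, adjusted p = 0.819). In prostaglandin synthesis and breakdown (15 genes, median 0.13) PTGR1, which inactivates prostaglandins and leukotrienes, rose, and the prostaglandin transporter SLCO2A1 fell from 8.32 and 8.38 to 7.75, 7.43 and 7.65 (-0.74 ± 0.16, adjusted p = 0.0279). PTGS2, the inducible cyclooxygenase, was not called (0.45 ± 0.48, adjusted p = 0.670). The IL1RN call was lost in 8 of the 12 fits, those without control replicate 1, 2 or 4, replicate 1 at 3 h, replicate 2 or 3 at 6 h or replicate 1 or 3 at 18 h (adjusted p up to 0.142), and the SLCO2A1 call without either array at 3 h or any 1 array at 18 h (up to 0.0769).

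Among 34 angiogenic and vasoactive genes 1 rose and 3 fell (median -0.11), against 2.67% and 1.75% of all genes. APLNR, the apelin receptor of endothelial cells, fell from 9.40 and 9.44 to 6.83, 7.88 and 7.57, well below both arrays at 3 h and all controls (-1.99 ± 0.27, adjusted p = 0.00311). Both of its probe sets were called and the call held without any single array. ANGPT1, a ligand that stabilises vessels, fell by 0.81 ± 0.19 (adjusted p = 0.0376) and NOSTRIN, a partner of endothelial nitric oxide synthase, by 0.66 ± 0.12 (adjusted p = 0.0158). The lymphangiogenic factor VEGFC rose from 10.21 and 11.30 to 12.64, 12.03 and 12.28 (1.56 ± 0.33, adjusted p = 0.0260). VEGFA read 11.49 and 12.50 at 3 h and 11.32, 10.50 and 10.19 at 18 h and did not pass (-1.33 ± 0.37, adjusted p = 0.0680). ANGPT1 was called in 3 of the 12 fits. NOSTRIN lost its call without replicate 1 at 18 h (adjusted p = 0.0606), and VEGFC without replicate 1 at 3 h, where its difference was 1.02, or replicate 1 or 3 at 18 h (up to 0.108).

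In IGF and PI3K signalling, 2 of 22 genes rose and 2 fell (median -0.05): IGFBP5 rose by 1.52 ± 0.37 (adjusted p = 0.0436) and the kinase subunit PIK3CA by 0.65 ± 0.16 (adjusted p = 0.0439), while IGFBP6 fell by 1.20 ± 0.28 (adjusted p = 0.0346) and the adaptor GAB1 by 0.98 ± 0.18 (adjusted p = 0.0140). IGFBP5 and PIK3CA were called in 3 and IGFBP6 in 6 of the 12 fits, and GAB1 in all but that without replicate 1 at 18 h (adjusted p = 0.0528). IGF1 itself overlapped between the groups (-0.07 ± 0.12, adjusted p = 0.805). Of 30 antioxidant genes 1 fell, the epoxide hydrolase EPHX1 (median -0.15), and none of 24 interferon response genes was called (median 0.04). The shares over all genes were 2.67% for rises and 1.75% for falls.

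Cell type markers were read alongside. Of the 6 luteal cell markers, STAR, CYP11A1, HSD3B1 and OXT stood between 13.29 and 14.99 on all 5 arrays. PTGFR stood between 12.14 and 13.53 and LHCGR between 7.67 and 11.40. The 6 luteal cell markers were all negative, against 53.1% of all genes, with a median of -0.82. Of them 3 were called lower (PTGFR, HSD3B1 and STAR), against 1.75% of all genes. Their mean level went from 13.88 and 13.82 at 3 h to between 12.71 and 13.21 at 18 h. CD68, a lysosomal protein of macrophages, rose from 9.06 and 9.04 to 10.26, 9.93 and 10.76 (1.27 ± 0.26, adjusted p = 0.0230). It was the only riser among 13 macrophage and monocyte markers and none fell, against 2.67% and 1.75% of all genes. The list median was 0.49. The mean level of these markers was 8.66 and 8.62 at 3 h, 8.63 to 9.34 at 18 h, and 7.86 to 9.47 among the controls, so the groups were not apart as a list. Their part in the rises of LGALS3, SPP1, CTSZ and IL1RN, which macrophages also make, was not tested. The CD68 call was lost without replicate 1 at 3 h or replicate 1 or 3 at 18 h (adjusted p up to 0.0698).

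Of 14 endothelial markers the sialomucin EMCN fell from 11.74 and 11.17 to 10.01, 10.31 and 10.40 (-1.22 ± 0.23, adjusted p = 0.0158), and the tight junction claudin CLDN5 rose from 9.18 and 9.28 to 9.80, 9.91 and 10.11 (0.71 ± 0.16, adjusted p = 0.0330). They went in opposite directions, and 1 of the 2 probe sets of EMCN was called. PECAM1 (0.48), CDH5 (0.32) and VWF (0.44) were positive but not called. Of the 14 markers 7 were positive and 7 negative, with a list median of 0.04. Over all genes 2.67% were called higher and 1.75% lower. The EMCN call was lost without replicate 1 at 3 h or at 18 h (adjusted p up to 0.0676) and the CLDN5 call without replicate 1 at 3 h, replicate 2 at 6 h or any 1 array at 18 h (up to 0.0970). No member was called among 11 mural and smooth muscle markers (median 0.32), 10 fibroblast markers (0.10), 14 T and NK cell markers (-0.05), 5 B cell markers (0.06), 8 neutrophil markers (0.23), 6 red cell markers (0.03) or 6 follicle granulosa markers (-0.28).

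The 14 largest rises lay between 2.66 and 4.47 log2 units. NEFM, a neurofilament subunit, read 4.62 and 6.69 at 3 h and 10.65, 8.67 and 11.05 at 18 h (4.47 ± 1.03, adjusted p = 0.0361), with a difference of 3.43 without replicate 1 and 5.51 without replicate 3 at 3 h. Its values at 3 h were below the array medians (7.09 to 7.17), no detection call was used, and how near they are to background was not tested. ANKRD1, a muscle ankyrin-repeat protein, read 6.98 and 11.38 at 3 h and 13.47, 13.28 and 12.92 at 18 h (4.04 ± 0.94, adjusted p = 0.0363). In both genes the arrays at 18 h were higher than those at 3 h, but the arrays at 3 h were more than 2 units apart. SERPINA14, the uterine serpin also called uterine milk protein in ruminants, was more even, at 6.99 and 6.81 against 11.99, 10.38 and 10.29 (15.9-fold, 3.99 ± 0.68, adjusted p = 0.0112). PMEPA1 went from 6.03 and 5.65 to 9.74, 8.80 and 8.57 (3.19 ± 0.36, adjusted p = 0.00159). NEBL, an actin-binding protein of muscle, was at 7.19 on both arrays at 3 h and at 10.27, 10.41 and 9.57 at 18 h (2.89 ± 0.34, adjusted p = 0.0017). Of its 4 probe sets 2 were called higher. The lipoxygenase ALOX12E was near the bottom of its range at 3 h (5.23 and 5.37) and rose to 7.74, 8.48 and 7.86 (2.73 ± 0.33, adjusted p = 0.00187).

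AHSG, the secreted glycoprotein fetuin A, followed another course. It read 9.39 and 9.47 at 3 h and 12.78, 13.33 and 13.07 at 18 h (3.63 ± 0.68, adjusted p = 0.0165), but the controls (10.27 to 12.84) and the arrays at 6 h (12.32 to 13.97) were also above both arrays at 3 h. Of its 8 probe sets 4 were called higher. PTGR1, too, was lower at 3 h (5.31 and 6.04) than on any control (6.41 to 7.56) before it rose to 7.57, 9.72 and 7.98 (2.75 ± 0.58, adjusted p = 0.0257). Of its 2 probe sets 1 was called. The other large rises were MAP3K7CL (2.78 ± 0.50), the retinoic acid carrier CRABP2 (2.75 ± 0.61), PARM1 (2.74 ± 0.55), the neuropeptide galanin GAL (2.72 ± 0.61), and BMP2 and IL1RN, given above.

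Calls of SERPINA14, AHSG, PMEPA1, NEBL, MAP3K7CL and ALOX12E held without any single array. Removing replicate 1 at 3 h ended the calls of NEFM, ANKRD1, CRABP2, PTGR1, PARM1 and GAL (adjusted p = 0.146, 0.0689, 0.122, 0.0951, 0.0702 and 0.123). The ANKRD1 difference was 1.84 without that array and 6.25 without replicate 3 at 3 h, and that of GAL 1.51 and 3.93. Apart from PTGR1, these were also lost without replicate 1 or 3 at 18 h, NEFM without control replicate 1 or 2, CRABP2 without replicate 2 at 18 h, GAL without replicate 2 at 6 h, and ANKRD1 without control replicate 1, 2 or 4, replicate 2 or 3 at 6 h or replicate 2 at 18 h (adjusted p up to 0.146).

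**Figure D5:**
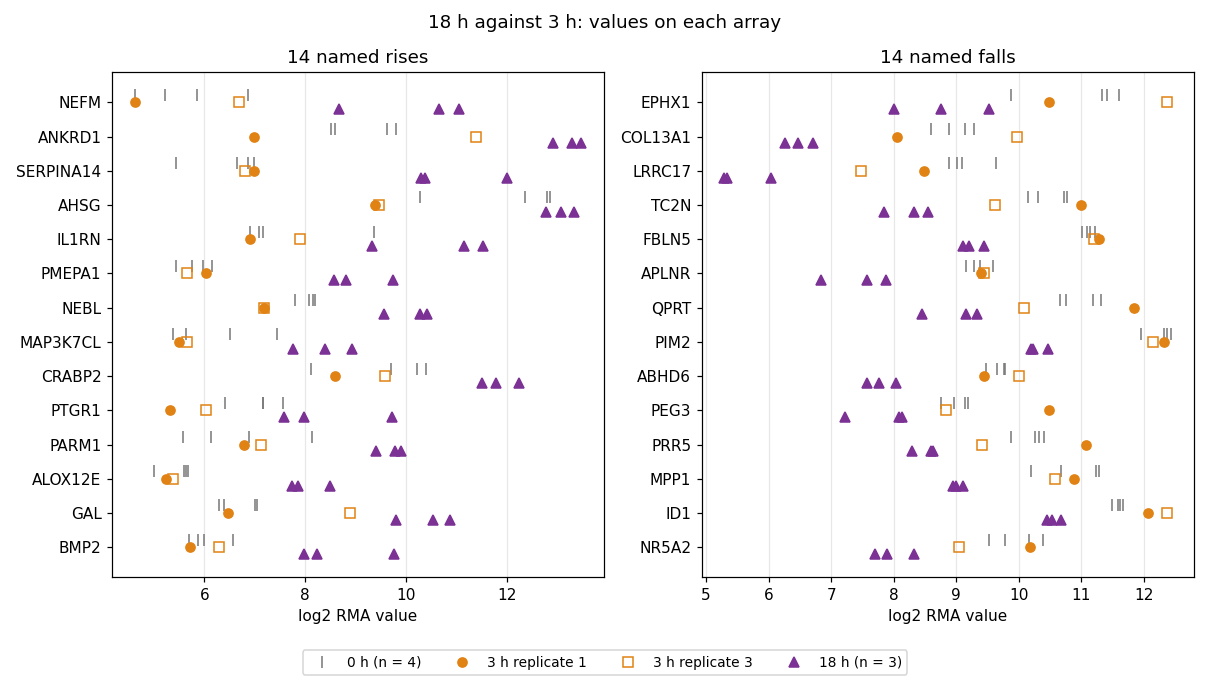
Log2 RMA values of the 14 largest rises (left) and, uncharacterised loci such as C16H1orf115 and TMEM88 left out, the 14 largest falls (right) among called genes, with the control arrays as grey ticks, the 2 arrays at 3 h as a filled circle (replicate 1) and an open square (replicate 3), and the 3 arrays at 18 h as triangles. SERPINA14, PMEPA1, NEBL, FBLN5 and PIM2 had both arrays at 3 h close together, whereas those of ANKRD1 (6.98 and 11.38) and EPHX1 (10.49 and 12.37) were far apart.

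The 14 falls described here lay between 1.63 and 2.66 log2 units and left out uncharacterised loci, among them C16H1orf115 (-2.19 ± 0.23, adjusted p = 0.0011) and TMEM88 (-1.98 ± 0.28, adjusted p = 0.00416), which fell more than several of them. FBLN5, a fibulin of elastic fibres, read 11.28 and 11.21 at 3 h and 9.11, 9.45 and 9.20 at 18 h (3.98-fold lower, -1.99 ± 0.18, adjusted p = 0.000812). The survival kinase PIM2 read 12.32 and 12.15 at 3 h and 10.46, 10.20 and 10.22 at 18 h (-1.94 ± 0.19, adjusted p = 0.00086). ABHD6, a monoacylglycerol lipase, read 9.44 and 10.003 against 7.77, 7.57 and 8.03 (-1.93 ± 0.25, adjusted p = 0.00301). In these 3 the controls lay at the level of 3 h and every array at 18 h was below it. TC2N read 11.00 and 9.62 at 3 h and 7.84, 8.32 and 8.55 at 18 h (-2.07 ± 0.36, adjusted p = 0.0118). The calls of FBLN5, PIM2, ABHD6, TC2N, APLNR and ID1 held without any single array.

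The largest fall, EPHX1, was also the least even: it read 10.49 and 12.37 at 3 h and 8.76, 8.01 and 9.53 at 18 h (-2.66 ± 0.66, adjusted p = 0.0477) and was called in 2 of the 12 fits that left out 1 array. Without replicate 1 at 3 h its difference was -3.60 and without replicate 3 -1.72. QPRT, an enzyme of NAD synthesis, read 11.85 and 10.07 at 3 h and 8.45, 9.33 and 9.15 at 18 h (-1.98 ± 0.44). The imprinted zinc finger gene PEG3 read 10.49 and 8.83 at 3 h and 8.09, 8.13 and 7.21 at 18 h (-1.85 ± 0.44). In both, replicate 3 at 3 h was within 1 unit of an array at 18 h, and without replicate 1 at 3 h the differences were -1.10 and -1.02, against -2.87 and -2.68 without replicate 3. PRR5 read 11.07 and 9.41 against 8.29, 8.60 and 8.63 (-1.73 ± 0.43), and was -0.91 without replicate 1 and -2.56 without replicate 3. The differences of LRRC17 (8.49 and 7.47 at 3 h, -2.43 ± 0.61) and MPP1 (10.89 and 10.58 at 3 h, -1.72 ± 0.33) depended less on the array at 3 h. They were -1.92 and -1.56 without replicate 1, and -2.94 and -1.87 without replicate 3. COL13A1 and NR5A2 are given above. Leaving out replicate 1 at 3 h ended the calls of LRRC17, QPRT, PEG3, PRR5 and MPP1 (adjusted p = 0.176, 0.119, 0.175, 0.189 and 0.0631), and so did leaving out replicate 1 at 18 h. The QPRT call was also lost without replicate 3 at 18 h, and LRRC17, PEG3 and PRR5 were called in 4, 4 and 3 of the 12 fits.

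The called genes were then placed in the time course. Of the 244 that rose, 207 (84.8%) had a mean at 3 h within 0.5 log2 units of the control mean, and of the 160 that fell 132 (82.5%), compared with 92.7% of all 9155 genes. A mean at 3 h can hide its arrays, as in ANKRD1, with 6.98 and 11.38 around the controls. Both arrays at 3 h were within 0.5 of the control mean for 162 of the genes that rose (66.4%), 96 of those that fell (60%) and 75.6% of all genes. The control mean was nearer to the 3 h mean than to the 18 h mean in 223 of the 244 and in 141 of the 160. The share over all genes was not counted, so these counts cannot be read as particular to called genes. At 6 h the genes that rose had covered a median of 51.3% of the change and those that fell 60.6%. Among the rises 48 had covered less than 25% by 6 h and 48 more than 75%, and among the falls 29 and 41. PIM2 had covered 70.5% by 6 h and CCND1 86.0%, whereas HSD3B1 had covered 22.9%, CD68 10.5% and SQLE none (-3.12%).

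A pattern of change at 3 h that had gone at 18 h was sought, taking a mean at 3 h at least 1 unit from the control mean and a mean at 18 h within 0.5 of it. It was found in 5 of the 160 genes that fell and in none of those that rose, and its share over all genes was not counted. The 5 genes were DNAJB1, ZFP36, FAM83D, the imprinted long RNA gene MEG3 and the tetraspanin TSPAN12, the last 3 being called in 9, 5 and 9 of the 12 fits that left out 1 array. DNAJB1 had a mean of 9.53 in controls, 10.99 at 3 h, 10.04 at 6 h and 9.51 at 18 h. TSPAN12 went from 9.22 in controls to 10.6 and 10.2 at 3 h, with a mean of 10.3 at 6 h and 9.42 at 18 h. Controls and the arrays at 6 h were not part of the comparison tested here, and these positions are descriptions.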

How the data were processed

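Total RNA of 12 buffalo CL was hybridised to GeneChip Bovine Genome Arrays. The values the authors deposited are, per the labels, log2 RMA values. The software, its version and the probe set definition are not given in the sources read here, nor is which arrays were normalized jointly. Groups and replicate numbers were taken from the labels. The table held 24128 probe sets, of which 112 controls were left out. The platform annotation, which names cattle genes, gave 1 symbol to 13292 probe sets, several to 86 and none to 10638. Genes were represented by the probe set with 1 symbol and the highest mean over the 12 arrays (9155 genes, 2913 with several probe sets).

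A linear model with a mean for each of the 4 groups was fitted in limma 3.58.1 (R 4.3.3). It used all 12 arrays, since 3 h holds only 2, and 18 h minus 3 h was tested with eBayes (two-sided). Differences were called at a Benjamini-Hochberg adjusted p under 0.05, over 24016 probe sets or 9155 genes. The number of arrays limits the precision, and RMA compresses differences at both ends of the scale. The steps were tested on simulated data.

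Named genes were the 14 largest rises and falls among called genes without overlap (symbols starting with LOC, MGC, KIAA, FAM or TMEM, or of the open reading frame kind, passed over as uncharacterised), up to 3 called members per gene list with the lowest adjusted p, and 22 fixed genes. The comparison, the 30 lists (617 of 789 symbols measured) and the genes were chosen with earlier results of these data known. Other list members in the text are examples and were picked once their values were known. Promoter motifs that had been planned were not searched, since no promoter sequence was used here. Alternatives were the 5 arrays alone, a replicate block, each array left out, a filter on dim probe sets, 2 other scalings, other spread models, array weights, averaging of the near-identical control replicates 1 and 4 (r = 0.997), the mean of a gene's probe sets, and, chosen after seeing the data, the 8 treated arrays alone.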

Additional observations from a re-analysis of the deposited data

Results flagged for a closer look

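In the control group of 4 arrays, 6 of the 83 named genes had 1 array set apart from the other 3 by more than Dixon's 95% critical value, which chance alone gives in about 5% of groups. Control replicate 3 was the one apart in 4 of them. It was high in IL1RN, at 9.36 against 6.91 to 7.16, and in CCL2, at 12.89 against 9.85 to 10.13. The same array was low in EPHX1, at 9.87 against 11.32 to 11.60, and in HSPA2, at 9.62 against 10.12 to 10.18. Control replicate 4 was low in ALOX12E, at 4.99 against 5.59 to 5.68. Control replicate 1 was low in LAMB1, at 10.86 against 10.99 on each of the other 3. In the fit, these arrays enter the comparison of 18 h with 3 h through the shared estimate of the spread. They also enter the choice of 1 probe set per gene, made by the mean over the 12 arrays. Whether they were normalized jointly with the others is not known. Without control replicate 3, 535 genes were called in place of 404, and the calls of all 66 named genes remained.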

How the results depend on the processing

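Counts are given in the order probe sets, probe sets with at least 2-fold change, and genes, against 681, 364 and 404. They were 154, 147 and 71 with the 5 arrays alone, 106, 97 and 60 with array weights, and 379, 266 and 219 with the 8 treated arrays. Deviations of same-numbered arrays at 3 h and 18 h correlated at r = -0.09 for number 1 and 0.03 for number 3. With 2 arrays at 3 h, deviations there mirror each other, so these values cannot decide whether same-numbered arrays share more than a number. With the replicate number as a block in the 12-array fit the counts were 227, 187 and 116. With the replicate block in the 5-array fit they were 0, 0 and 0 by limma, with 1025 genes at an unadjusted p under 0.05. Leaving out 1 array in turn gave 221 to 1290 probe sets, 162 to 694 with at least 2-fold change, and 127 to 853 genes. The lowest counts came without replicate 1 at 18 h and the highest without replicate 3 at 3 h. With replicate 2 at 18 h left out 408 probe sets were called and with replicate 3 at 18 h left out 247 genes. When an array at 3 h is left out, the other is assumed to vary like the other groups and the spread at 3 h no longer enters. The dim filter, repeated quantile normalization, centring and the trend and robust settings gave 390 to 405 genes, the mean of probe sets 390 and the averaged controls 284. Of the 66 named genes called, 18 were called with the 5 arrays, 27 with the block, 14 with array weights, 35 with the treated arrays and 60 to 63 under the scalings, the filter, the spread settings and the mean of probe sets. The filter on dim probe sets left 63 of the 66 to test, and all 63 were called. None of the 66 changed sign under any alternative.

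Among named genes that were not called, some changed sign with the array at 3 h. CYP11A1, LHCGR, NR5A1, FOS, NR4A1, AREG, VEGFA, HSPH1 and CD44 did not. LHCGR was -2.73 without replicate 1 and -2.61 without replicate 3 at 3 h, and AREG 1.61 and 7.14. Without replicate 1 at 3 h ATF3 was -1.76, INHBA -0.51, PTGS2 -0.41 and CCL2 -0.56, and without replicate 3 they were 3.50, 5.16, 1.30 and 1.47. JUN, EGR1, IGF1 and SOCS3 were 0.36, 0.56, 0.055 and 0.87 without replicate 3 and -1.11, -1.04, -0.20 and -1.46 without replicate 1. As means of their probe sets PTGS2 was -0.029 and IGF1 0.011, and LIPE, NR1H3, DNAJB1, MMP14, PEG3 and PGRMC1 lost their calls. EPHX1, LRRC17, PRR5, ERO1A, MMP14, IGFBP5 and STAR were called over genes but not over probe sets.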

Other observations

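Of the 109 genes called in every fit that left out 1 array, several belong to no list used here and were picked after their values were seen. SOX4, a transcription factor, rose from 3 h to 18 h by 2.53 ± 0.29 and MYB, another, by 2.64 ± 0.38. LDHA, which turns pyruvate into lactate, rose by 1.59 ± 0.16, the lactate transporter SLC16A3 by 1.59 ± 0.26 and the prolyl hydroxylase EGLN3 by 2.37 ± 0.40. ADCY2, an adenylyl cyclase, rose by 2.26 ± 0.21, and WLS, needed for WNT secretion, by 2.12 ± 0.26. FCGR2B, an inhibitory Fc receptor of immune cells, rose by 2.47 ± 0.40, and the lysosomal genes ASAH1 and MCOLN1 by 1.001 ± 0.15 and 0.79 ± 0.12. Among falls, ACSS2, which makes acetyl-CoA from acetate, fell by 1.52 ± 0.29, the retinaldehyde dehydrogenase ALDH1A1 by 1.46 ± 0.27 and the caveolar protein CAVIN2 by 1.47 ± 0.26. The adjusted p of each, by limma over all 9155 genes, was below 0.05. No explanation was tested for these genes.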
